A study of Mus musculus with 24 samples.

Results

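Amino acid transporters of 7 solute carrier families (Slc1, Slc3, Slc6, Slc7, Slc36, Slc38 and Slc43) were followed through the mouse oocyte, the 2-cell embryo and the 4-cell embryo. Members were chosen by symbol: every gene whose symbol is one of these family names followed by "a" and a number, without Slc38a4 and Slc6a8. The rule found 58 genes among the 46078 of the table of PR-DUB and KDM6B embryos and among the 46078 of the Eed table. It found 59 among the 55573 of the table of oocytes and late 2-cell embryos, which also lists Slc6a21. The libraries were bulk RNA-seq of pooled oocytes or embryos, 24 in all, in 12 groups of 2. PR-DUB is the deubiquitinase complex that removes ubiquitin from histone H2A, and KDM6B is a demethylase of histone H3 lysine 27. Embryos of B6/DBA mothers and PWK fathers carried PR-DUB overexpression (OE) or were its controls (CTR), at the 2-cell and at the 4-cell stage. KDM6B OE and CTR embryos came from the same cross at the same stages. All of these were labelled wild type by wild type, and what the controls received is not stated in the labels. In the 2-cell KDM6B OE libraries the manipulation label names PR-DUB while the title names KDM6B, and they were grouped by title. Eed is a core subunit of the complex that methylates histone H3 lysine 27. The 4-cell embryos of B6/129mixed mothers and PWK fathers either lacked maternal Eed (matKO) or were controls. Titles of the matKO libraries write OE, and these libraries were grouped by the manipulation label. Wild-type MII oocytes were B6/DBA, and wild-type late 2-cell embryos were B6/DBA by B6/DBA. Animal ages are not given, and pools held 15 to 19 embryos where the labels give a number.

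Solute carriers move amino acids across membranes either by uptake along an ion gradient or by exchange. Light chains of the Slc7 family work as exchangers after pairing with a heavy chain of the Slc3 family: Slc7a5 (LAT1) with Slc3a2 takes up leucine and other large neutral amino acids, and Slc7a11 (xCT) with Slc3a2 imports cystine in exchange for glutamate. The oocyte and the early embryo use glycine, taken up by Slc6a9 (GlyT1), to set cell volume, and amino acid supply in the lysosome is read by the kinase complex mTORC1, to which Slc38a9 and Slc36a1 contribute.

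Promoter sequences are shown for 4 members with a promoter entry whose RNA moved between stages: Slc7a11, which is abundant in the oocyte and then falls, Slc1a1 and Slc43a2, which rise by the late 2-cell stage, and Slc7a6, which rises at the 4-cell stage. Each is the 250 bases before the annotated start, from RefSeq (GRCm38.p6, the mm10 build), printed 5′ to 3′ on the gene's own strand. Capitals mark matches to the ATF4 composite site TGATGNAA in Slc7a11 and to the ETS site CCGGAAG in Slc7a6. The windows are chr3:50443614-50443863 on the minus strand for Slc7a11, chr19:28834885-28835134 for Slc1a1, chr11:75531444-75531693 for Slc43a2 and chr8:106168604-106168853 for Slc7a6, the last 3 on the plus strand.
Slc7a11: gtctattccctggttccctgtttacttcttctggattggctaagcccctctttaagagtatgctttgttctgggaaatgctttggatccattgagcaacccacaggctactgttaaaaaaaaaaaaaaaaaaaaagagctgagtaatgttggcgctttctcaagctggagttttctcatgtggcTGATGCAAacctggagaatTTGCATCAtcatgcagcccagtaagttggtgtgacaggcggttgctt
Slc1a1: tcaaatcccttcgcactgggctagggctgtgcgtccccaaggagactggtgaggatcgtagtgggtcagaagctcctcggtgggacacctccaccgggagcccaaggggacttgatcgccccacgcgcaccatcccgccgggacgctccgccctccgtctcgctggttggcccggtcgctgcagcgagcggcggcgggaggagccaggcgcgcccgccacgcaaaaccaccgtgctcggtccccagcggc
Slc43a2: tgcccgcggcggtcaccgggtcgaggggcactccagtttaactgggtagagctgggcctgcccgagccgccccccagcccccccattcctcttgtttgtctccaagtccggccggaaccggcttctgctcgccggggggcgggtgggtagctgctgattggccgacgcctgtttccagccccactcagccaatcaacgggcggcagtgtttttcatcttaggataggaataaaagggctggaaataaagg
Slc7a6: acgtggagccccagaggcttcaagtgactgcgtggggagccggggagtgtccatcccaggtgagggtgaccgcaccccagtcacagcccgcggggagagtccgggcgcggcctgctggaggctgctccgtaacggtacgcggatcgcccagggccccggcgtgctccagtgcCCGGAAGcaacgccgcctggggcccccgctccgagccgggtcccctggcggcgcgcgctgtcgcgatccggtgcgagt

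The Slc7a11 window held 2 matches to TGATGNAA, 66 bases before the start site on the sense strand and 47 bases before it on the antisense strand. It held 2 CpG dinucleotides at 43.2% GC, against 27 CpG and 70.4% GC for Slc1a1, 17 CpG and 62.8% GC for Slc43a2 and 30 CpG and 74.0% GC for Slc7a6. The ETS match of Slc7a6 starts 78 bases before the start site. RefSeq lists 2 start sites each for Slc43a2 and Slc7a6, and the first in the table is shown. The other window held 32 CpG at 65.6% GC for Slc43a2 and 38 CpG at 77.2% GC for Slc7a6, where the ETS match starts 145 bases before the start site. Both strands of all promoters were searched for 5 motifs, no motif lying within another. TGATGNAA occurred in 3.45% of the 32851 RefSeq promoters and in 4 of the 61 member promoters. These belong to 3 of the 42 matched members (Slc6a21, Slc7a11 and Slc7a7). CCGGAAG occurred in 6.91% of all promoters and in 6 of the 61 member promoters, which belong to 5 members (Slc36a4, Slc38a6, Slc3a2, Slc6a16 and Slc7a6). The NR5A monomer site AAGGTCA (4.08% of all promoters), the OBOX core GGATTA (6.25%) and the TATA box TATAAA (12.4%) were the other motifs. They were found in 2, 2 and 5 of the 61 member promoters, in as many members, and in none of the windows printed here. Members had a median of 9 CpG per promoter against 6 over all promoters. Slc1a5, Slc7a5, Slc7a2 and Slc6a15 had no promoter entry.

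Values are FPKM (fragments scaled to transcript length and to the mapped fragments of a library), so levels can be compared between genes; group values are mean ± SD of 2 libraries. A 2 kb gene at 1 FPKM corresponds to 23.1 to 41.2 fragments if the smallest step seen in each library is 1 fragment; total FPKM ran from 355172 to 755389. Replicates correlated at 0.960 to 0.988 across genes. Oocyte marker genes (8 genes such as Oosp1 and Gdf9) summed to 3594 to 3732 FPKM in MII oocytes, to 298 to 311 FPKM in PR-DUB CTR 2-cell embryos and to 710 to 743 FPKM in KDM6B CTR 2-cell embryos. Of 11 cumulus and granulosa markers, only 1 in each group was at 1 FPKM or more in both libraries, Cyp19a1 in MII oocytes and Amhr2 in every other group; the list summed to 6.78 to 24.9 FPKM. Blood, stroma and sperm markers summed to at most 8.94 FPKM in any library. Kdm6b RNA was listed at 14588 and 14735 FPKM in the KDM6B CTR 2-cell libraries and at 14237 and 9809 in the OE libraries, against 21.1 and 23.1 in PR-DUB CTR. Kdm6b RNA was thus high in KDM6B controls as well as in OE embryos, also at the 4-cell stage (571 and 401 in CTR and 597 and 547 in OE). In such pools fewer cells of a type and less RNA per cell cannot be told apart.

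Between 16 and 20 members reached 1 FPKM in a library, and together members made up 174 to 319 FPKM. Their share of all FPKM was highest in the oocyte, at 0.0808% and 0.0884%, and between 0.0231% and 0.0446% in every embryo library. The total depends on the single gene Gm23935, at 3029 and 13420.5 FPKM in MII oocytes and between 60865.5 and 171159 in embryo libraries. This lowers the embryo shares more than the oocyte shares, and shares without that gene were not computed. The filter for testing (1 FPKM in 2 libraries of a table) passed 24 members in the PR-DUB and KDM6B table, 19 in the Eed table and 22 in the table of oocytes and late 2-cell embryos. Over all 24 libraries the most abundant members were Slc7a5 at 37.4 FPKM, the glutamine exchanger Slc1a5 (ASCT2) at 21.9, the CD98 heavy chain Slc3a2 at 20.95 and the glutamate carrier Slc1a1 (EAAT3) at 17.0. Slc6a9 and the taurine carrier Slc6a6 (TauT) followed, both at 14.0, then Slc43a3, a purine nucleobase carrier named with the LAT proteins, at 13.4. Slc7a11 had a mean of 9.47 FPKM, the branched-chain amino acid and proline carrier Slc6a15 8.59, Slc38a10 7.51, the cationic amino acid exchanger Slc7a6 (y+LAT2) 6.995 and the arginine carrier Slc7a2 (CAT2) 6.74.

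Many members were nearly silent. Slc1a6, Slc36a3, Slc6a18, Slc6a19, Slc6a2 and Slc7a13 were listed at 0 in all 24 libraries, and 10, 18 and 15 members were listed at 0 throughout the PR-DUB and KDM6B, Eed, and oocyte and late 2-cell tables. Slc38a1 (SNAT1), the arginine carrier Slc7a3, the large neutral carrier Slc43a1 and the lysosomal carrier Slc36a4 stayed under 1 FPKM in every library. So did Slc7a8 (LAT2), whose highest value, 0.695 and 0.992 FPKM, was in the oocyte. Slc38a3, a glutamine carrier known from cumulus cells of the follicle, was listed at 0 in both MII libraries and reached 1 FPKM only in PR-DUB OE 2-cell (1.70 and 0.940) and Eed matKO (1.03 and 0.476) groups. The 6 silent genes include carriers of gut and kidney epithelium and of nerve cells, such as Slc6a19 and Slc6a2.

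**Figure D1:**
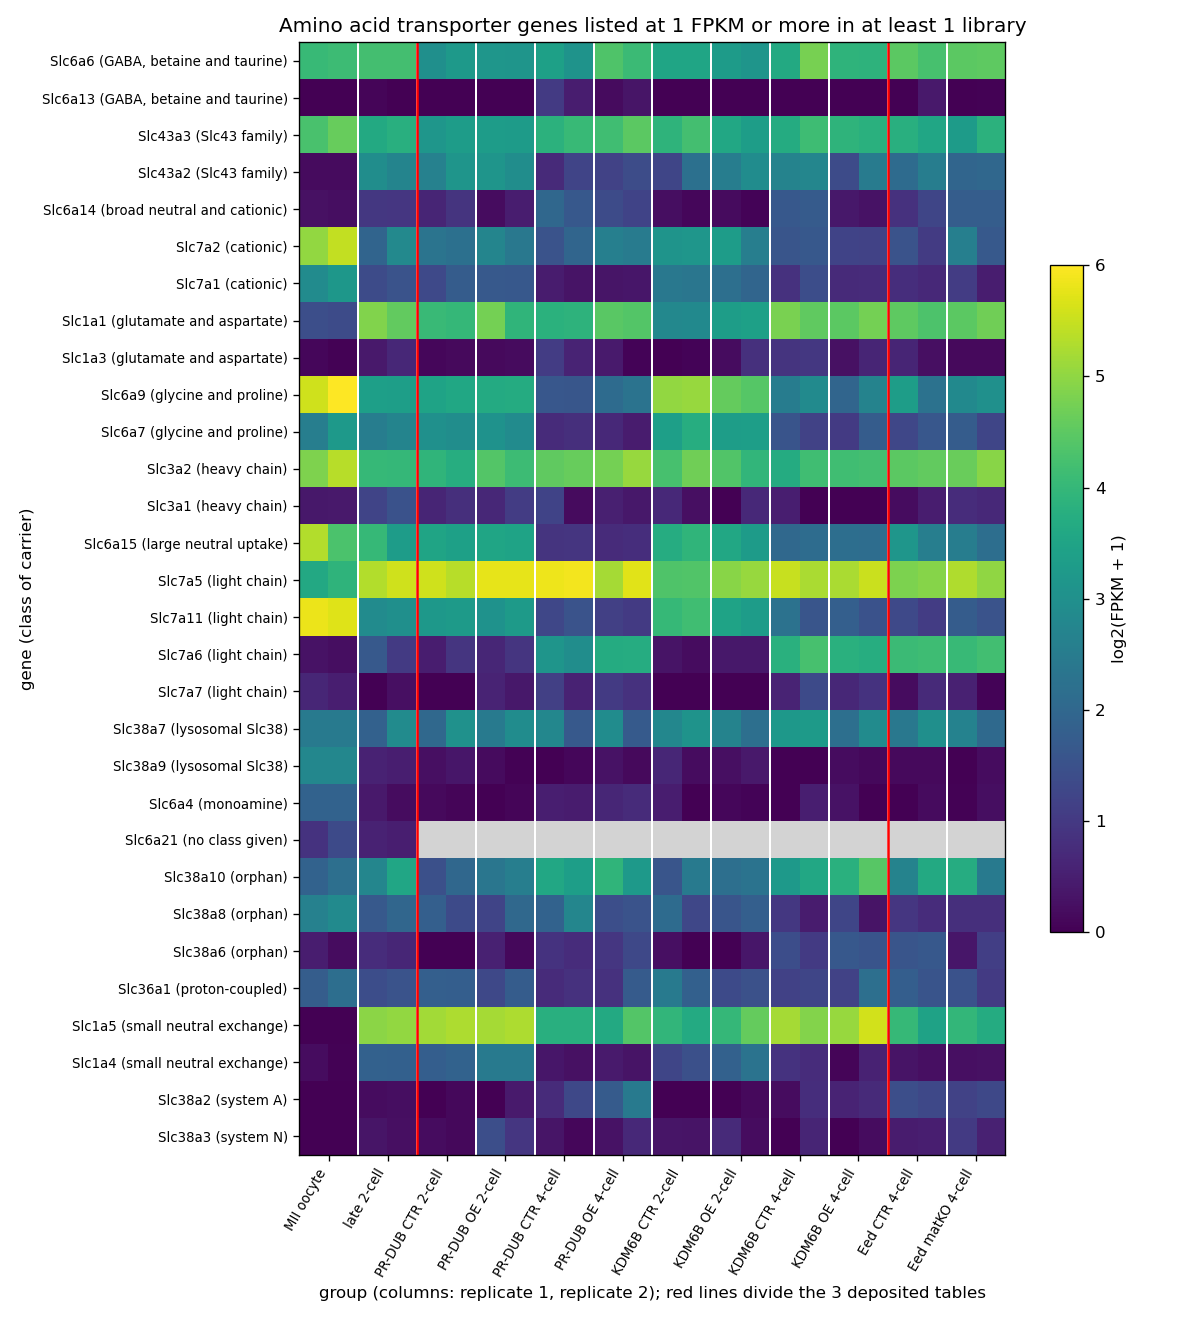
Level of the 30 members that reached 1 FPKM in any library, as log2(FPKM + 1) in colour, by library (columns, replicates side by side, grouped) and gene (rows, ordered by class of carrier). Slc7a2, Slc7a11 and Slc6a9 are brightest in the MII columns and Slc1a5 is dark there; grey marks a gene that is not listed in a table, and levels in different tables were set by separate runs.

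From the MII oocyte to the late 2-cell embryo the arginine carrier Slc7a2, the cystine exchanger Slc7a11 and the glycine carrier Slc6a9 were among the members that fell, and Slc1a5, Slc1a1, Slc43a2 and Slc7a5 among those that rose. Of 22 members tested, 8 rose and 10 fell, where 82.7% of all genes tested were called, 38% higher and 44.6% lower. Slc1a5, Slc1a4, Slc43a2, Slc3a1 and Slc7a6 passed the filter only through late 2-cell libraries, and Slc6a4 and Slc38a9 only through oocyte libraries, so the filter fixed their direction. The test was limma on log2(FPKM + 1), called at an adjusted p under 0.05 over all genes of the table, and every log2 change given is on that scale, which understates the change of genes near or under 1 FPKM. Adjusted p-values throughout are Benjamini-Hochberg values of that test. Scaled instead by median ratio, 10 rose and 9 fell of 23 tested, as the median change of all genes moved from -0.20 to 0.10. Nothing in the labels says that the libraries of a group were collected separately, so p-values measure only the spread between these libraries, which may be technical. An exact permutation test of 2 against 2 cannot go below p = 0.333, so a lack of overlap between groups of 2 is weak evidence. The share of all genes without overlap was not computed.

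Slc7a11 was at 56.1 and 51.0 FPKM in the oocyte libraries and at 6.41 and 6.93 in the late 2-cell libraries, a log2 change of -2.83 (SE 0.13, adjusted p = 2.20e-05). Slc6a9 was at 46.1 and 63.1 and then at 9.41 and 9.26 FPKM, a log2 change of -2.41 (SE 0.18, adjusted p = 8.28e-05). Slc7a2 was at 31.8 and 42.6 and then at 2.83 and 6.12 FPKM, a log2 change of -2.86 (SE 0.32, adjusted p = 0.000414). In all 3 genes both oocyte libraries lay above both late 2-cell libraries by a wide margin. The other arginine and lysine carrier of this kind, Slc7a1 (CAT1), fell as well, from 7.29 ± 1.15 to 1.75 ± 0.232 FPKM, a log2 change of -1.59 (SE 0.19, adjusted p = 0.000481). Slc38a9, the lysosomal arginine sensor, fell from 5.88 and 5.83 to 0.494 and 0.423 FPKM, a log2 change of -2.23 (SE 0.15, adjusted p = 5.99e-05). The serotonin carrier Slc6a4 fell from 2.71 ± 0.0214 to 0.235 ± 0.127 FPKM, a log2 change of -1.59 (SE 0.14, adjusted p = 0.000162). Smaller declines passed the test for Slc3a2 (33.9 ± 8.46 to 15.1 ± 0.239 FPKM), the SNAT8 gene Slc38a8 (5.79 ± 0.804 to 2.58 ± 0.559) and Slc43a3 (20.8 ± 3.58 to 12.2 ± 0.889), with adjusted p between 0.00250 and 0.00787. Slc6a15 was at 38.7 and 18.8 and then at 15.2 and 8.97 FPKM, a log2 change of -1.14 (SE 0.39, adjusted p = 0.0353); the call ended on rescaling (adjusted p = 0.0982) and without the late 2-cell replicate 2 (adjusted p = 0.0845).

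In the Slc1 family Slc1a5, Slc1a1 and Slc1a4 rose; Slc1a5 and Slc1a4 entered the test only through the late 2-cell libraries. Slc1a5 was listed at 0 in both oocyte libraries and at 30.3 and 31.9 FPKM in late 2-cell embryos, a log2 change of 5.005 (SE 0.16, adjusted p = 1.00e-05). Slc1a1 was at 1.73 and 1.59 and then at 28.1 and 22.8 FPKM, a log2 change of 3.31 (SE 0.17, adjusted p = 3.00e-05). The small neutral amino acid exchanger Slc1a4 (ASCT1) was at 0.152 and 0.0276 and then at 2.63 and 2.58 FPKM, a log2 change of 1.73 (SE 0.13, adjusted p = 9.22e-05). The groups did not overlap for any of the 3, and summed Slc1 RNA was 1.80 ± 0.222 FPKM in oocytes and 59.6 ± 2.52 in late 2-cell embryos. Of the carriers of large neutral amino acids, Slc43a2 and Slc7a5 rose while Slc6a15 fell. Slc43a2 (LAT4) went from 0.121 and 0.137 to 6.73 and 5.53 FPKM, a log2 change of 2.65 (SE 0.16, adjusted p = 4.47e-05). Slc7a5 went from 11.2 and 14.0 to 38.8 and 46.4 FPKM, a log2 change of 1.68 (SE 0.16, adjusted p = 0.000228), while its partner Slc3a2 fell. The remaining risers were Slc38a10 (3.12 ± 0.585 to 8.27 ± 3.56 FPKM), Slc7a6 (0.197 ± 0.0525 to 1.61 ± 0.823) and Slc3a1, the heavy chain of the cystine exchanger of kidney and gut (0.315 ± 0.0230 to 1.62 ± 0.361), with adjusted p between 0.00125 and 0.0147.

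Members without a call in this comparison were Slc6a6 (15.9 ± 0.601 and 17.5 ± 0.156 FPKM), the proline carrier Slc6a7 (6.61 ± 2.43 and 5.19 ± 0.450), the lysosomal glutamine exporter Slc38a7 (4.51 ± 0.0632 and 4.54 ± 2.68) and the lysosomal proton-coupled carrier Slc36a1 (2.94 ± 0.750 and 1.80 ± 0.149). Rescaled, Slc6a6 was called higher, with a log2 change of 0.43 (adjusted p = 0.0199). Some genes overlap exons of a gene on the other strand, and the labels do not say whether counting used strand. The overlap covers 31.86% of the exonic length of Slc1a1 (4430402I18Rik, 1.39 and 2.61 FPKM in oocytes and 0.0948 and 0.496 in late 2-cell embryos), 27.8% of Slc6a9 (Ccdc24) and 26.46% of Slc3a1 (Prepl, 41.6 and 35.0 in oocytes and 4.26 and 3.84 in late 2-cell embryos). Over the same step all 8 oocyte markers fell, their sum going from 3594 and 3732 FPKM to 280 and 324 FPKM. Their part in the declines was not tested.

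**Figure D2:**
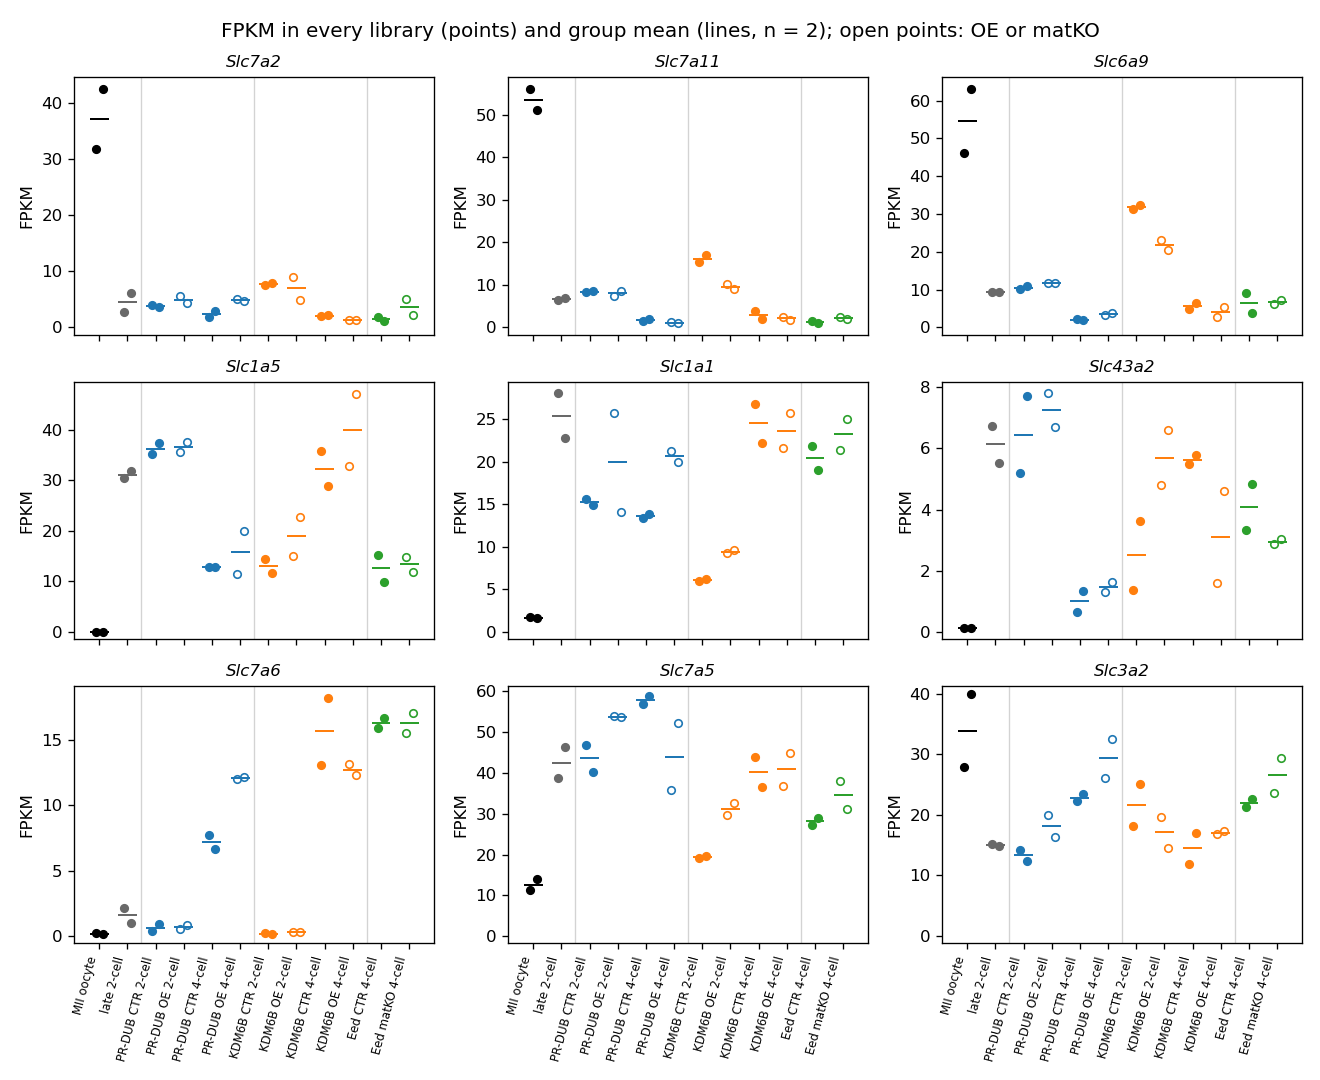
FPKM of 9 members in every library (points; lines are group means, n = 2; open points are OE or matKO; y axes start near 0 and differ between genes). The MII values of Slc7a2, Slc7a11 and Slc6a9 lie above all embryo values, Slc7a6 is high in every 4-cell group and low in every 2-cell group, and Slc1a5 falls from 2-cell to 4-cell in PR-DUB embryos (blue) but rises in KDM6B embryos (orange).

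From the 2-cell to the 4-cell stage some members were called in the same direction in both sets of controls, and a smaller group in opposite directions. The share of all genes called alike in both sets was not computed. In PR-DUB CTR embryos 8 members rose and 9 fell of 24 tested, where 56.7% of all genes were called (26.5% higher and 30.2% lower). In KDM6B CTR embryos 9 rose and 8 fell, where 64.2% of all genes were called (38% higher and 26.1% lower). Slc7a6, Slc7a7, Slc6a14, Slc38a6 and Slc38a2 passed the filter only through 4-cell libraries and Slc1a4 only through 2-cell libraries. The filter thus favoured a rise of the former and a fall of Slc1a4. Rescaled by median ratio, 9 rose and 9 fell in PR-DUB CTR and 8 rose and 11 fell in KDM6B CTR, as the median change of all genes in KDM6B CTR moved from 0.28 to 0.02. The KDM6B 4-cell libraries carry another sequencer label (NextSeq550/HiSeq2000) than all other libraries of this table (NextSeq550), so stage and sequencer label cannot be told apart in KDM6B embryos.

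Slc7a6, which exchanges cationic for neutral amino acids together with Slc3a2, had the largest rise in both controls. PR-DUB CTR libraries were at 0.405 and 0.895 FPKM at the 2-cell stage and at 7.76 and 6.63 at the 4-cell stage, a log2 change of 2.32 (SE 0.23, adjusted p = 2.88e-06). KDM6B CTR libraries were at 0.246 and 0.141 and then at 13.1 and 18.2, a log2 change of 3.79 (SE 0.23, adjusted p = 4.89e-08). No 2-cell library reached the level of any 4-cell library, and the same held in OE embryos (0.726 ± 0.234 to 12.1 ± 0.118 FPKM for PR-DUB, 0.311 ± 0.000572 to 12.7 ± 0.587 for KDM6B). Its relative Slc7a7 (y+LAT1) was listed at 0 in all 4 control 2-cell libraries and reached 1.21 and 0.479 FPKM in PR-DUB and 0.514 and 1.56 in KDM6B 4-cell controls, with log2 changes of 0.86 (SE 0.27, adjusted p = 0.0155) and 0.98 (SE 0.27, adjusted p = 0.00629). Slc6a14, which takes up neutral and cationic amino acids, rose from 0.707 ± 0.225 to 2.58 ± 0.638 FPKM in PR-DUB CTR and from 0.115 ± 0.0602 to 2.21 ± 0.0964 in KDM6B CTR, with log2 changes of 1.06 (SE 0.21, adjusted p = 0.000932) and 1.53 (SE 0.21, adjusted p = 4.30e-05). The SNAT10 gene Slc38a10 rose from 2.41 ± 0.883 to 10.2 ± 1.26 FPKM and from 3.20 ± 1.73 to 9.74 ± 1.91 (adjusted p = 0.000740 and 0.00257). The SNAT6 gene Slc38a6 rose from 0 in both libraries to 0.770 ± 0.10004 FPKM in PR-DUB CTR and from 0.0920 ± 0.130 to 1.33 ± 0.454 in KDM6B CTR (adjusted p = 0.0109 and 0.00162). These 5 rose in both sets of controls, though for all but Slc38a10 the filter, passed only through 4-cell libraries, favoured a rise.

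Slc6a9, Slc7a11, Slc6a7, Slc6a15, Slc7a1 and Slc36a1 fell in both sets of controls. Slc6a9 was at 10.2 and 10.9 FPKM in PR-DUB CTR 2-cell libraries and at 2.11 and 2.04 at the 4-cell stage, a log2 change of -1.91 (SE 0.23, adjusted p = 1.67e-05). In KDM6B CTR it was at 31.4 and 32.5 and then at 4.74 and 6.35, a log2 change of -2.34 (SE 0.23, adjusted p = 2.21e-06). The 2-cell level was thus higher in KDM6B than in PR-DUB controls, without overlap. Slc7a11 was at 8.21 and 8.61 and then at 1.43 and 1.90 FPKM in PR-DUB CTR and at 15.3 and 16.98 and then at 3.82 and 2.02 in KDM6B CTR, with log2 changes of -1.83 (SE 0.24, adjusted p = 3.33e-05) and -2.17 (SE 0.24, adjusted p = 5.92e-06). The proline carrier Slc6a7 fell from 6.88 ± 0.285 to 0.703 ± 0.0541 and from 10.8 ± 2.02 to 1.60 ± 0.480 FPKM, and Slc6a15 from 10.02 ± 0.481 to 0.892 ± 0.0123 and from 13.2 ± 1.59 to 3.21 ± 0.169, with adjusted p between 2.17e-07 and 1.31e-05. Slc7a1 fell from 1.93 ± 0.629 to 0.309 ± 0.0784 FPKM and from 4.21 ± 0.0675 to 1.24 ± 0.595 (adjusted p = 0.00119 and 0.000530). Slc36a1 fell from 2.50 ± 0.0542 to 0.732 ± 0.0955 and from 3.59 ± 1.40 to 1.31 ± 0.117 (adjusted p = 0.0309 and 0.0355). These Slc36a1 calls were not stable. In PR-DUB CTR the call was lost with no filter and on leaving out any single library of the comparison. In KDM6B CTR it was lost with no filter, with a pseudocount of 0.1 and without 2-cell replicate 1. Of the oocyte's arginine carriers, Slc7a2 fell in KDM6B CTR (7.76 ± 0.288 to 2.09 ± 0.0984 FPKM, adjusted p = 0.000223) and did not pass the test in PR-DUB CTR (3.82 ± 0.224 and 2.38 ± 0.714, adjusted p = 0.0966). Oocyte marker RNA moved the same way, to 68.6 to 77.9 FPKM in PR-DUB CTR and 116 to 125 FPKM in KDM6B CTR at the 4-cell stage. Its part in these declines was not tested.

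The glutamine exchanger Slc1a5 moved in opposite directions in the 2 sets of controls. So did the large neutral amino acid carrier Slc43a2, whose rise in KDM6B CTR did not hold in most alternative settings. Slc1a5 was at 35.2 and 37.3 FPKM in PR-DUB CTR 2-cell libraries and at 12.9 and 12.8 in 4-cell libraries, a log2 change of -1.42 (SE 0.26, adjusted p = 0.000507). In KDM6B CTR it was at 14.3 and 11.7 and then at 35.8 and 28.8, a log2 change of 1.25 (SE 0.26, adjusted p = 0.00108). OE libraries went the way of their own controls, from 36.6 ± 1.46 to 15.8 ± 6.004 FPKM for PR-DUB and from 18.9 ± 5.52 to 40.0 ± 10.1 for KDM6B. Slc43a2 was at 5.19 and 7.71 and then at 0.651 and 1.34 FPKM in PR-DUB CTR, a log2 change of -1.90 (SE 0.38, adjusted p = 0.00106). In KDM6B CTR it was at 1.38 and 3.61 and then at 5.48 and 5.78, a log2 change of 0.999 (SE 0.38, adjusted p = 0.0370). That rise kept its call in 2 of 7 alternative settings. It was lost after rescaling (adjusted p = 0.139), with a pseudocount of 0.1, with no filter and on only the 4 libraries compared. Leaving out the KDM6B CTR 2-cell replicate 1 ended it as well. KDM6B OE embryos had 5.70 ± 1.28 and 3.10 ± 2.13 FPKM. Slc1a1 had no call in PR-DUB CTR, at 15.6 and 14.9 FPKM and then at 13.4 and 13.8, with a log2 change of -0.16 (SE 0.22, adjusted p = 0.573). In KDM6B CTR it was at 6.004 and 6.26 and then at 26.8 and 22.2, a log2 change of 1.83 (SE 0.22, adjusted p = 1.42e-05). Slc1a4 fell in PR-DUB CTR (2.58 ± 0.187 to 0.243 ± 0.0661 FPKM, adjusted p = 0.000112) and was at 1.58 ± 0.272 and 0.762 ± 0.0925 in KDM6B CTR (adjusted p = 0.0544).

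The heavy chain Slc3a2 went up in PR-DUB CTR, from 14.2 and 12.5 to 22.3 and 23.4 FPKM, a log2 change of 0.73 (SE 0.22, adjusted p = 0.0120), and down in KDM6B CTR, from 18.2 and 25.004 to 11.9 and 17.01, a log2 change of -0.55 (SE 0.22, adjusted p = 0.0412). Without single libraries these calls ended: the first at an adjusted p of 0.0742 without PR-DUB CTR 2-cell replicate 2, the other at 0.294 without KDM6B CTR 4-cell replicate 1. Its partner Slc7a5 was at 46.8 and 40.3 and then at 56.9 and 59.0 FPKM in PR-DUB CTR, a log2 change of 0.41 (SE 0.18, adjusted p = 0.0657) that was called after rescaling, at 0.59 (adjusted p = 0.0111). In KDM6B CTR Slc7a5 was at 19.2 and 19.6 and then at 44.0 and 36.7, a log2 change of 1.01 (SE 0.18, adjusted p = 0.000273). The 2-cell libraries of KDM6B CTR had the lowest Slc7a5 of these 4 groups. Slc43a3 rose in PR-DUB CTR from 8.40 ± 0.716 to 14.5 ± 1.33 FPKM (adjusted p = 0.00757) and was at 15.8 ± 2.55 and 14.3 ± 3.28 in KDM6B CTR (adjusted p = 0.533). Slc38a2 (SNAT2), an uptake carrier induced when amino acids are short, rose in PR-DUB CTR from 0 and 0.0922 to 0.663 and 1.47 FPKM (adjusted p = 0.0154) and was at 0.144 and 0.718 in KDM6B CTR after 0 in both 2-cell libraries (adjusted p = 0.171). Slc6a6 was at 7.63 ± 1.01 and 8.62 ± 1.52 FPKM in PR-DUB CTR and at 10.6 ± 0.0607 and 18.97 ± 10.6 in KDM6B CTR, without a call. Slc38a7 was at 5.14 ± 2.88 and 4.05 ± 2.60 in PR-DUB CTR and at 6.66 ± 1.10 and 8.45 ± 0.337 in KDM6B CTR, and Slc38a8 at 2.03 ± 0.707 and 4.20 ± 2.14 and at 2.34 ± 1.31 and 0.671 ± 0.431, also without a call; rescaled, Slc43a3, Slc38a8 and Slc1a4 were called lower in KDM6B CTR (adjusted p = 0.0343, 0.0229 and 0.00877).

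Calls near the threshold rested on single libraries. Without PR-DUB CTR 4-cell replicate 1 the adjusted p over the stages was 0.112 for Slc36a1, 0.0594 for Slc38a6 and 0.153 for Slc7a7, and without replicate 2 of that group it was 0.139 for Slc38a2 and 0.0552 for Slc43a3. In KDM6B CTR it was 0.233 for Slc36a1 without 2-cell replicate 1 and 0.0739 for Slc7a7 without 4-cell replicate 2.

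Embryos with OE passed from the 2-cell to the 4-cell stage along the same lines, tested in comparisons added after the values had been seen. PR-DUB OE had 8 members higher and 8 lower (58.1% of all genes called, 29.3% higher and 28.8% lower), and KDM6B OE 6 higher and 7 lower (59.3% of all genes called, 34% higher and 25.4% lower; 6 and 9 members rescaled). In both, Slc7a6 (2.93 and 3.39 on the log2 scale, PR-DUB first), Slc38a10 (1.12 and 1.88) and Slc38a6 (0.78 and 1.43) rose. In both, Slc6a15 (-2.74 and -1.29), Slc6a7 (-2.40 and -1.97), Slc6a9 (-1.48 and -2.18), Slc7a11 (-2.07 and -1.74), Slc1a4 (-2.09 and -1.75) and Slc7a1 (-1.31 and -1.35) fell. Slc1a5 fell in PR-DUB OE, by a log2 change of -1.21 (SE 0.26, adjusted p = 0.00158), and rose in KDM6B OE, by 1.05 (SE 0.26, adjusted p = 0.00388). PR-DUB OE embryos also had higher Slc38a2, Slc6a6, Slc43a3, Slc6a14 and Slc3a2 and lower Slc43a2 at the 4-cell stage, and KDM6B OE embryos higher Slc1a1 and Slc7a7 and lower Slc7a2.

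The OE group means give the levels behind these changes. In PR-DUB OE, from the 2-cell to the 4-cell stage, Slc6a9 went from 11.8 ± 0.113 to 3.59 ± 0.444 FPKM, Slc7a11 from 7.98 ± 0.921 to 1.13 ± 0.121, Slc6a15 from 10.3 ± 0.241 to 0.696 ± 0.0401 and Slc6a7 from 6.91 ± 0.582 to 0.498 ± 0.172. Slc38a10 went from 4.53 ± 0.591 to 11.3 ± 3.95, Slc43a3 from 8.91 ± 0.0692 to 19.2 ± 3.19, Slc3a2 from 18.2 ± 2.56 to 29.3 ± 4.64 and Slc43a2 from 7.25 ± 0.780 to 1.46 ± 0.235. Of genes without a call, Slc1a1 was at 19.9 ± 8.17 and 20.6 ± 0.903 FPKM, Slc7a5 at 53.8 ± 0.122 and 44.0 ± 11.6, Slc7a2 at 4.94 ± 0.959 and 4.83 ± 0.224, Slc38a7 at 5.49 ± 1.44 and 4.41 ± 3.09, Slc38a8 at 2.20 ± 1.21 and 1.81 ± 0.121 and Slc36a1 at 1.92 ± 0.660 and 1.54 ± 1.06. Slc6a9, Slc7a11, Slc6a15 and Slc6a7 thus ended under 5 FPKM in these embryos. In KDM6B OE, Slc6a9 went from 21.7 ± 1.88 to 4.16 ± 1.84 FPKM, Slc7a11 from 9.57 ± 0.770 to 2.17 ± 0.471, Slc6a15 from 9.95 ± 1.61 to 3.47 ± 0.0684, Slc6a7 from 9.19 ± 0.170 to 1.69 ± 0.944 and Slc7a2 from 6.995 ± 2.88 to 1.29 ± 0.0275. Slc1a1 went from 9.39 ± 0.242 to 23.6 ± 2.90 and Slc38a10 from 3.73 ± 0.225 to 16.8 ± 5.46. Without a call were Slc7a5 (31.2 ± 2.14 and 40.9 ± 5.63 FPKM), Slc3a2 (17.1 ± 3.65 and 17.1 ± 0.443), Slc43a3 (10.1 ± 1.39 and 13.5 ± 0.698), Slc6a6 (8.26 ± 0.690 and 13.9 ± 0.0682), Slc38a7 (4.49 ± 1.26 and 4.97 ± 2.01), Slc38a8 (2.24 ± 0.364 and 0.811 ± 0.799) and Slc36a1 (1.69 ± 0.181 and 2.42 ± 1.62). Calls that rested on a library were Slc38a10 (adjusted p = 0.116 without PR-DUB OE 4-cell replicate 1), Slc38a6 (0.129 without PR-DUB OE 2-cell replicate 2), Slc3a2 (0.140 without PR-DUB OE 4-cell replicate 2), Slc1a5 in KDM6B OE (0.0510 without 2-cell replicate 1) and Slc7a7 in KDM6B OE (0.110 without 4-cell replicate 2).

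**Figure D3:**
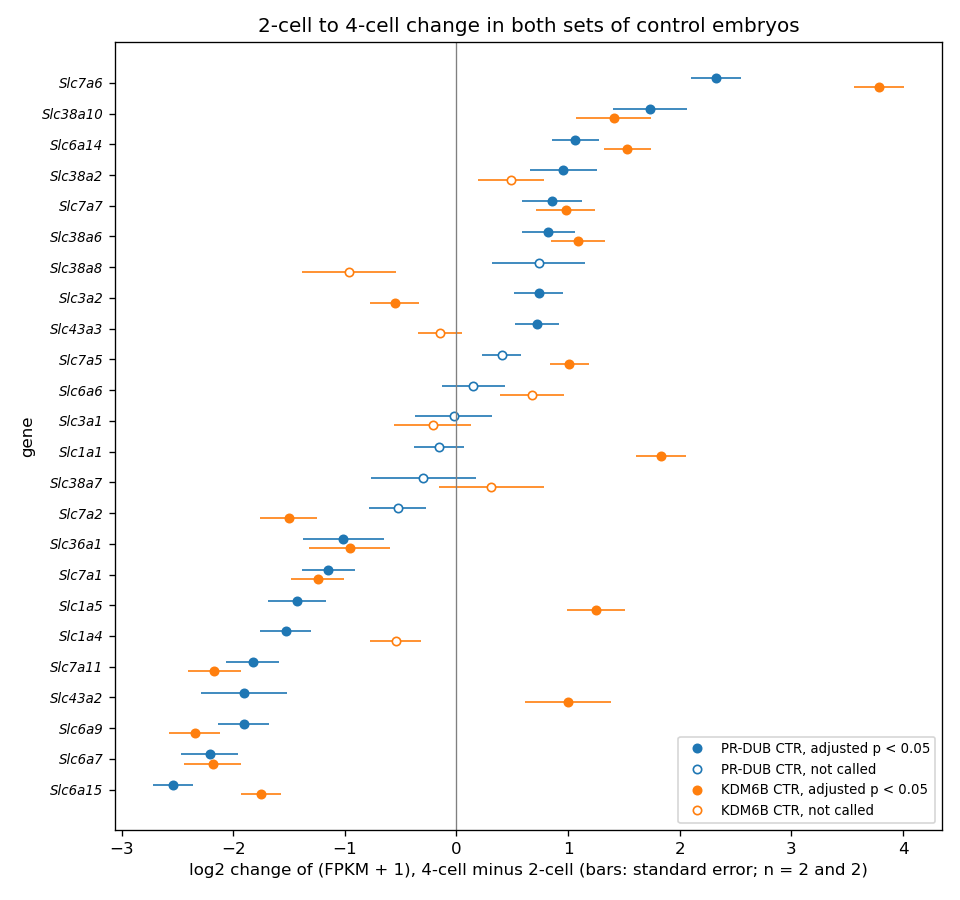
Change of log2(FPKM + 1) from the 2-cell to the 4-cell stage (points, with standard error bars, 2 libraries per group) for the 24 tested members in PR-DUB CTR (blue) and KDM6B CTR (orange) embryos; filled points passed the adjusted p threshold of 0.05. Slc7a6 lies farthest right in both and Slc6a15, Slc6a7, Slc6a9 and Slc7a11 far left in both, while Slc1a5, Slc43a2 and Slc3a2 have filled points on opposite sides of 0.

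The difference between the stage changes was tested directly, in a comparison added after the values had been seen. It was called for 9 of 24 members, 6 in the direction of KDM6B and 3 in the direction of PR-DUB, where 29.5% of all genes were called (22.7% higher and 6.84% lower); rescaled, the split was 4 and 5. Without either PR-DUB CTR 2-cell library, or without PR-DUB CTR 4-cell replicate 2, 5 members were called. The difference (KDM6B minus PR-DUB) was 2.90 (SE 0.54, adjusted p = 0.00199) for Slc43a2, 2.67 (SE 0.37, adjusted p = 0.000320) for Slc1a5 and 1.99 (SE 0.31, adjusted p = 0.000704) for Slc1a1. Compared at a single stage, the controls of the experiments differed in 10 members at the 2-cell stage (27% of all genes called, 9.54% higher and 17.4% lower) and in 11 at the 4-cell stage (33.3%, 23.8% higher and 9.54% lower), also added after seeing the values. Leaving out any 1 of the 4 libraries left 4 to 6 calls at the 2-cell stage, and leaving out PR-DUB CTR 4-cell replicate 1 or 2 left 7 or 5 at the 4-cell stage. At the 2-cell stage the KDM6B controls had higher Slc6a9, Slc7a11, Slc7a2, Slc7a1, Slc43a3 and Slc3a2 and lower Slc1a5, Slc1a1, Slc43a2 and Slc7a5. The first 6 of these genes fell and the other 4 rose between oocyte and late 2-cell embryo, where 82.7% of all genes were called. The share of all genes that match in this way was not computed, and no link was tested. Log2 differences at the 2-cell stage ran from -1.41 (SE 0.26, adjusted p = 0.00188) for Slc1a5 to 1.52 (SE 0.23, adjusted p = 0.000549) for Slc6a9. Slc43a2 was not called there after rescaling (adjusted p = 0.0966). Slc7a11 and Slc7a2 lost their 2-cell calls on leaving out any single library, and Slc7a1 and Slc43a2 with a pseudocount of 0.1. Slc3a2 and Slc43a3 lost theirs without KDM6B CTR 2-cell replicate 2. Only Slc6a9, Slc1a5, Slc1a1 and Slc7a5 kept the 2-cell call under rescaling, the other pseudocount and leaving out each library. Oocyte marker RNA was 710 to 743 FPKM in these KDM6B controls, 298 to 311 in PR-DUB controls and 280 to 324 in late 2-cell embryos. RNA of 5 markers of the 2-cell embryo, such as Zfp352, was 256 to 296, 132 to 143 and 108 to 129 FPKM in the same groups. Kdm6b RNA also differed, at 14588 and 14735 FPKM in KDM6B controls and 21.1 and 23.1 in PR-DUB controls. Whether the embryos were collected at the same hour is not given in the labels. Neither its part in the difference nor that of Kdm6b RNA was tested. At the 4-cell stage KDM6B controls had higher Slc43a2, Slc1a5, Slc6a15, Slc6a9, Slc7a6, Slc6a6, Slc1a1 and Slc7a1 and lower Slc38a8, Slc3a2 and Slc7a5; rescaled, 5 were higher and 3 lower. These comparisons share their control libraries with the stage comparisons and are not independent of them.

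In PR-DUB OE embryos no transporter was called at the 2-cell stage. The test called 0 of 24 members (limma, lowest adjusted p = 0.233 for Slc1a4; 1 member at an unadjusted p under 0.05), where 1.18% of all genes were called. Slc1a4 was at 2.45 and 2.72 FPKM in CTR and at 4.54 and 4.56 in OE libraries, a log2 change of 0.63 (SE 0.23, adjusted p = 0.233). Slc38a10 was at 1.78 and 3.03 FPKM in CTR and at 4.11 and 4.94 in OE libraries, with a log2 change of 0.72 (SE 0.33, adjusted p = 0.358). Among the main carriers Slc1a5 was at 36.2 ± 1.52 FPKM in CTR and 36.6 ± 1.46 in OE, Slc7a5 at 43.6 ± 4.59 and 53.8 ± 0.122, Slc6a9 at 10.5 ± 0.514 and 11.8 ± 0.113 and Slc6a6 at 7.63 ± 1.01 and 7.83 ± 0.191.

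At the 4-cell stage of PR-DUB OE, 2 members rose, the taurine carrier Slc6a6 and the system A carrier Slc38a2, and 0 fell, where 15.7% of all genes were called, 12.3% higher. Slc38a2 (chr15:96687392-96699730, mm10) was at 0.663 and 1.47 FPKM in CTR and at 2.33 and 4.51 in OE libraries, a log2 change of 1.08 (SE 0.30, adjusted p = 0.0295). Slc6a6 (chr6:91684053-91759066) was at 9.70 and 7.54 FPKM in CTR and at 19.3 and 16.1 in OE libraries, a log2 change of 0.96 (SE 0.29, adjusted p = 0.0391). Neither gene's groups overlapped. Slc38a2 passed the filter only with the OE libraries counted, so the filter favoured a rise of this gene. The median change of all genes was 0.13 and moved to 0.00 on rescaling, after which Slc38a2 had 0.95 (adjusted p = 0.0477), Slc6a6 0.77 (adjusted p = 0.0944) and Slc7a5 was called lower at -0.61 (adjusted p = 0.0341). Slc38a2 had an adjusted p of 0.212 without OE replicate 2, and the call of Slc6a6 was lost without any 1 of the 4 libraries, with an adjusted p of up to 0.200, without CTR replicate 2. Without CTR replicate 1 neither was called. Nor was either called with no filter on low values (adjusted p = 0.0507 for Slc38a2 and 0.0751 for Slc6a6). Oocyte marker RNA was 68.6 to 77.9 FPKM in CTR and 73.0 to 73.1 in OE. Slc7a5 was at 56.9 and 59.0 FPKM in CTR and at 35.8 and 52.3 in OE libraries, with a log2 change of -0.41 (SE 0.18, adjusted p = 0.139) before rescaling. Members near the threshold were Slc7a2, at 1.88 and 2.89 FPKM in CTR and 4.99 and 4.67 in OE (adjusted p = 0.0515), and Slc7a6, at 7.76 and 6.63 in CTR and 12.005 and 12.2 in OE (adjusted p = 0.0618). For both, each OE library lay above each CTR library, but the groups were apart in most members tested here, with or without a call. Slc6a14 was lower without a call, at 3.03 and 2.13 FPKM in CTR and 1.60 and 1.33 in OE (adjusted p = 0.113). Slc36a4, under the filter, was at 0 and 0.0449 FPKM in CTR and 0.449 and 0.456 in OE libraries, and it was called higher with no filter (adjusted p = 0.000159). The difference between the PR-DUB effects at the 4-cell and the 2-cell stage was called for no member (limma; 3 members at an unadjusted p under 0.05, 1.74% of all genes called), at 0.93 (SE 0.40, adjusted p = 0.261) for Slc6a6 and 0.92 (SE 0.42, adjusted p = 0.284) for Slc38a2.

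Overexpression of KDM6B changed no member at the 2-cell stage by the test (0 of 24 called by limma, lowest adjusted p = 0.1001 for Slc7a5; 7 members at an unadjusted p under 0.05; 0.757% of all genes called). Slc7a5 was at 19.2 and 19.6 FPKM in CTR and at 29.7 and 32.7 in OE libraries, a log2 change of 0.65 (SE 0.18, adjusted p = 0.1001). Slc7a11 was at 15.3 and 16.98 FPKM in CTR and 10.1 and 9.03 in OE, a log2 change of -0.70 (SE 0.24, adjusted p = 0.180), and Slc6a9 at 31.4 and 32.5 FPKM in CTR and 23.0 and 20.3 in OE, a log2 change of -0.54 (SE 0.23, adjusted p = 0.294). In these 3 genes the OE values lay between those of KDM6B CTR and PR-DUB CTR. Oocyte marker RNA, at 482 to 549 FPKM in OE, did so too, and its part was not tested. Some other members did not. Mean Slc1a4 was 1.58 FPKM in KDM6B CTR, 3.26 in KDM6B OE and 2.58 in PR-DUB CTR. Mean Slc36a1 was 3.59, 1.69 and 2.50 FPKM in the same order. The share of members or of all genes that lay between was not computed.

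At the 4-cell stage of KDM6B OE 1 member of 24 was called, Slc6a14, which fell, where 0.359% of all genes were called, 0.226% lower. Slc6a14 (chrX:21714896-21742355, mm10) was at 2.15 and 2.28 FPKM in CTR and at 0.313 and 0.221 in OE libraries, a log2 change of -1.34 (SE 0.21, adjusted p = 0.0208). The groups did not overlap, and OE embryos stayed near the 2-cell level of 0.0840 ± 0.0581 FPKM, with a log2 change over the stages of 0.23 (SE 0.21, adjusted p = 0.379). After rescaling the change was -1.25 (adjusted p = 0.0311), and without OE replicate 2 the adjusted p was 0.0804; the call was also lost without either CTR library. Oocyte marker RNA was 117 to 125 FPKM in CTR and 93.6 to 96.9 in OE, and its part was not tested. The adjusted p was 0.549 when the spread was estimated from these 4 libraries alone. The KDM6B effect on Slc6a14 at the 4-cell minus the 2-cell stage was -1.303 (SE 0.30, adjusted p = 0.103), and it did not pass; 0 members were called there (5 at an unadjusted p under 0.05, 0.139% of all genes called). PR-DUB minus KDM6B effects were called for no member at the 2-cell stage (2 at an unadjusted p under 0.05, 1.72% of all genes called) or at the 4-cell stage (5, 9.27%); at the 4-cell stage the difference was 1.28 (SE 0.40, adjusted p = 0.0678) for Slc6a6 and 0.91 (SE 0.42, adjusted p = 0.199) for Slc38a2. Other members had no call in KDM6B OE 4-cell embryos, such as Slc7a5 (40.3 ± 5.16 and 40.9 ± 5.63 FPKM) and Slc1a1 (24.5 ± 3.22 and 23.6 ± 2.90).

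Loss of maternal Eed changed no member by the test at the 4-cell stage (0 of 19 called by limma, lowest adjusted p = 0.572; 2 members at an unadjusted p under 0.05), where 0.0171% of all genes were called. Slc7a6 was at 15.9 and 16.7 FPKM in CTR and at 15.5 and 17.1 in matKO libraries, a log2 change of 0.00 (SE 0.15, adjusted p = 0.999). Slc38a6 showed the largest difference, at 1.996 and 2.14 FPKM in CTR and 0.286 and 1.16 in matKO, with a log2 change of -0.88 (SE 0.34, adjusted p = 0.572). Slc6a14 was at 0.813 and 1.38 FPKM in CTR and 2.38 and 2.39 in matKO, a log2 change of 0.70 (SE 0.27, adjusted p = 0.581). Slc7a2 followed at 1.91 and 1.07 FPKM in CTR and 5.004 and 2.18 in matKO, a log2 change of 0.83 (SE 0.38, adjusted p = 0.628). In CTR and matKO embryos Slc7a5 was at 28.1 ± 1.296 and 34.5 ± 4.91 FPKM, Slc3a2 at 22.0 ± 0.952 and 26.5 ± 4.07, Slc1a1 at 20.5 ± 2.00001 and 23.2 ± 2.49 and Slc6a6 at 19.8 ± 2.18 and 21.7 ± 0.268. Slc1a5 was at 12.5 ± 3.66 and 13.3 ± 2.05 FPKM, Slc43a3 at 11.7 ± 1.44 and 11.2 ± 3.25, Slc6a9 at 6.44 ± 3.78 and 6.68 ± 0.622 and Slc38a10 at 8.51 ± 4.32 and 8.35 ± 5.36. All 8 of these carriers had an adjusted p of 0.676 or more. Less abundant members were Slc6a15 (6.40 ± 2.14 and 4.16 ± 0.943 FPKM), Slc38a7 (5.59 ± 1.85 and 4.21 ± 1.53), Slc43a2 (4.07 ± 1.07 and 2.95 ± 0.106), Slc36a1 (2.21 ± 0.359 and 1.44 ± 0.562), Slc7a11 (1.296 ± 0.305 and 2.11 ± 0.327), Slc6a7 (1.74 ± 0.463 and 1.86 ± 0.674) and Slc38a2 (1.60 ± 0.194 and 1.37 ± 0.117). Slc1a4 (0.218 ± 0.0408 and 0.195 ± 0.00684), Slc7a1 (0.660 ± 0.0791 and 0.748 ± 0.491) and Slc38a8 (0.822 ± 0.163 and 0.760 ± 0.00723) stayed under the filter. Oocyte marker RNA was 117 to 147 FPKM in CTR and 156 to 180 in matKO. Eed RNA itself was at 28.5 and 33.1 FPKM in CTR and at 22.7 and 26.9 in matKO libraries, and its source was not tested.

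**Figure D4:**
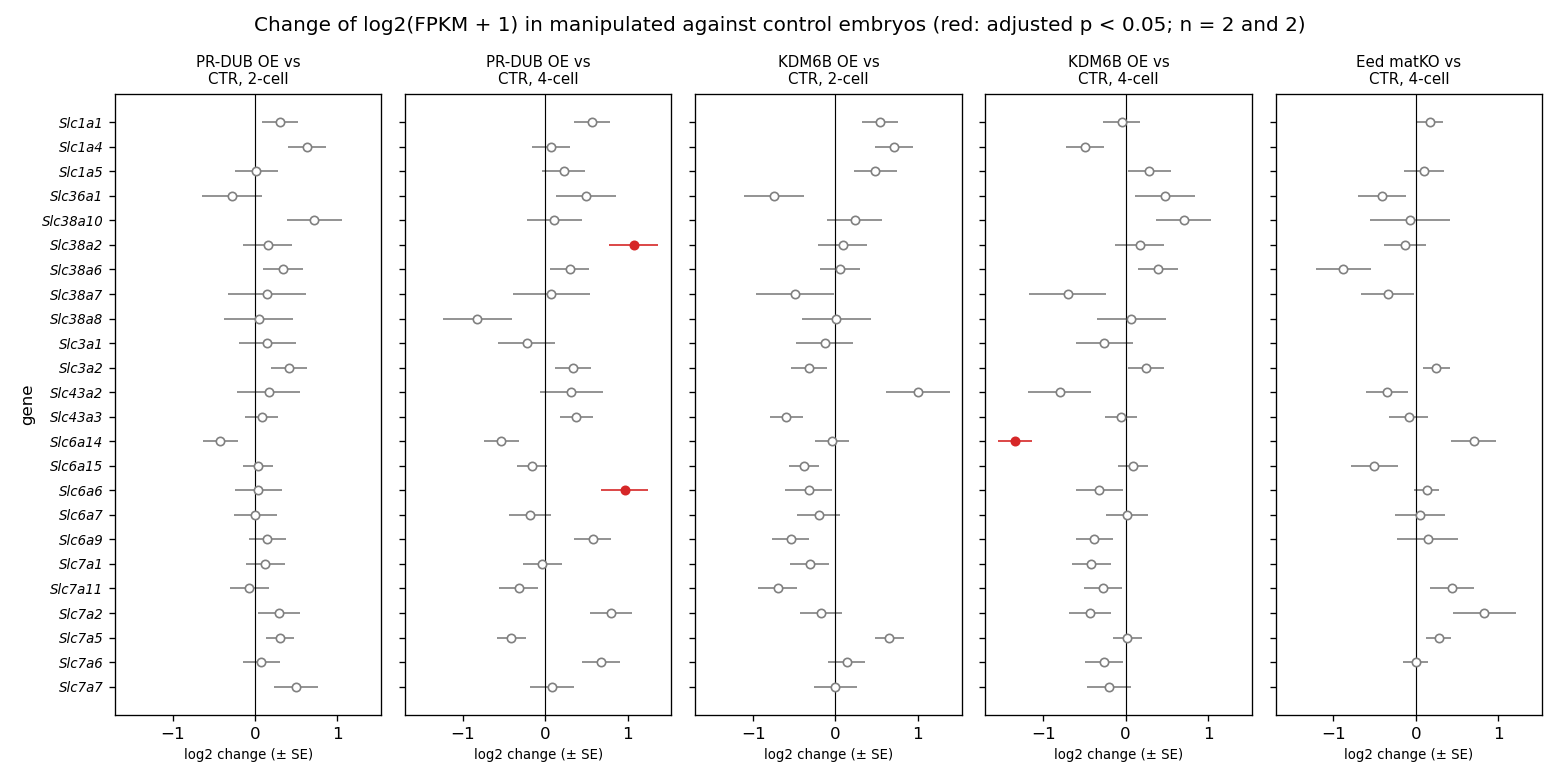
Change of log2(FPKM + 1) in OE or matKO embryos against their controls (points, with standard error bars, 2 against 2 libraries) for every member tested, 1 panel per comparison; red points passed the adjusted p threshold of 0.05. Only Slc38a2 and Slc6a6 (higher in PR-DUB OE, 4-cell) and Slc6a14 (lower in KDM6B OE, 4-cell) are red, and the Eed panel, from a table of its own, has 19 genes and no red point.

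Among genes that use or sense amino acids, most of the synthetase list rose between the 2-cell and the 4-cell stage. The list held 23 genes, of cytosolic aminoacyl-tRNA synthetases, which load amino acids onto tRNA, and of partners such as Aimp1 and Eef1e1. Over the stages 17 rose and 2 fell in PR-DUB CTR, and 20 rose and 0 fell in KDM6B CTR (16 and 0 rescaled). Of all genes, 26.5% and 38% were called higher. The median log2 changes of the list were 1.09 and 1.58, against -0.04 and 0.28 over all genes. The strongest were Aimp1, a scaffold of the synthetase complex (3.39 and 3.64), Tars (2.89 and 3.62), Nars in PR-DUB CTR (2.995) and Rars in KDM6B CTR (2.72). From oocyte to late 2-cell embryo the same list went the other way, with 6 higher and 14 lower and a median log2 change of -0.89 against -0.20 over all genes. In the mTORC1 amino acid sensing list, with 32 genes tested, 14 rose and 7 fell in PR-DUB CTR and 13 rose and 6 fell in KDM6B CTR, where 56.7% and 64.2% of all genes were called, so the share of the list that was called is near that of all genes. Tfeb, the lysosomal transcription factor, went from 0.535 to 75.1 FPKM in PR-DUB CTR and from 0.377 to 36.2 in KDM6B CTR, while Rragc, a RAG GTPase, fell from 137 to 18.5 and from 217 to 33.1. From oocyte to late 2-cell embryo 13 of 33 sensing genes rose and 10 fell (18 and 8 rescaled), where 82.7% of all genes were called, led by the leucine sensor Sesn2 (0.867 to 162 FPKM).

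The list of ATF4 targets and amino acid synthesis genes had 16 members tested, of which 6 rose and 5 fell over the stages in each set of controls, with 56.7% and 64.2% of all genes called. Phgdh and Psat1, which make serine, rose in KDM6B CTR with log2 changes of 5.47 and 2.29, and Asns, asparagine synthetase, rose in PR-DUB CTR (2.73). Phgdh was also higher at the 4-cell stage of PR-DUB CTR, at 19.8 ± 7.98 FPKM after 4.17 ± 1.70 at the 2-cell stage. At most 3 called genes of a list are named, so a gene named in 1 set may have moved in the other. In PR-DUB OE 4-cell embryos 5 genes of this list rose and 2 fell, among them Shmt2 (1.82) and Phgdh (1.37) higher and the stress factor Ddit3 lower, at -3.20 (SE 0.34, adjusted p = 0.000444). Rescaled, 3 rose and 2 fell, and Phgdh was no longer called (adjusted p = 0.0593); 15.7% of all genes were called in this comparison. The sensing list had 8 higher and 1 lower there, which became 2 and 2 on rescaling. The synthetase list had 4 higher, which became 2 higher and 1 lower. Carriers of amino acids from other families were not called in that comparison (0 of 12 by limma), and over the stages 1 rose and 6 fell in PR-DUB CTR and 4 rose and 4 fell in KDM6B CTR. In KDM6B OE embryos the only call of these lists was Rars at the 2-cell stage, which rose by 0.82 (SE 0.13, adjusted p = 0.0270) on the log2 scale. Eed matKO and PR-DUB OE 2-cell embryos had no call in any of the 4 lists.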

How the data were processed

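RNA-seq was made from pools of mouse oocytes and embryos with the SMART-Seq Stranded low-input kit and read as 76 bp pairs, per the labels' protocols. Reads were trimmed with Trim Galore 0.6.5, aligned to mm10 with HISAT2 2.1.0 and quantified with StringTie 1.3.3b, per the submitters' processing notes. The authors deposited FPKM values per gene in 3 tables, 1 for PR-DUB and KDM6B, 1 for Eed and 1 for oocytes and late 2-cell embryos; neither the use of strand in counting nor the annotation release is stated. FPKM correct for gene length and library size but hold no counts, so tests compared log values. Levels set across the tables come from separate runs, and tests were made within a table.

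Members and gene lists were chosen with earlier results of these data known, partly from an earlier analysis of the series. Genes that reached 1 FPKM in 2 or more libraries of their table entered the test, limma 3.58.1 (R 4.3.3; moderated test with trend, two-sided) on log2(FPKM + 1), with Benjamini-Hochberg adjustment over all genes tested and calls at 0.05. The fit held all 16 libraries (8 residual degrees of freedom) or the 4 of the Eed or oocyte table (2). The smallest p of an exact permutation test on groups of 2 is 0.333. Differences between effects were contrasts in the same fit, and 5 comparisons were added after seeing the values. The script was tested on simulated data. Alternatives were median-ratio rescaling, a pseudocount of 0.1, no filter, the replicate number as a block, only the 4 libraries compared, and leaving out each library. The text names every member called, the 20 most abundant, a list of carriers known from oocytes and embryos, and at most 3 called genes of each other list. Positions are from GENCODE vM21 and promoters from RefSeq GRCm38.p6; 42 members matched, with 61 promoters. Python 3.11.15, pandas 2.3.3 and matplotlib 3.10.9 were used. Precision is set by depth and by 2 libraries per group.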

Additional observations from a re-analysis of the deposited data

Results flagged for a closer look

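By the test of the difference between the stage changes of the controls, 29.5% of all genes were called. For 9 members the change from the 2-cell to the 4-cell stage differed between KDM6B and PR-DUB controls by that test (limma, 2 libraries per group, log2 difference, KDM6B minus PR-DUB). These were Slc43a2 at 2.90 (SE 0.54, adjusted p = 0.00199), Slc1a5 at 2.67 (SE 0.37, adjusted p = 0.000320), Slc1a1 at 1.99 (SE 0.31, adjusted p = 0.000704), Slc7a6 at 1.46 (SE 0.32, adjusted p = 0.00497), Slc1a4 at 0.98 (SE 0.32, adjusted p = 0.0384) and Slc6a15 at 0.79 (SE 0.26, adjusted p = 0.0350), all higher in KDM6B. Lower in KDM6B were Slc38a8 at -1.70 (SE 0.59, adjusted p = 0.0485), Slc3a2 at -1.29 (SE 0.31, adjusted p = 0.00813) and Slc43a3 at -0.87 (SE 0.28, adjusted p = 0.0336). Slc1a4 and Slc6a15 were no longer called after rescaling (adjusted p = 0.135 and 0.436) or without KDM6B CTR 2-cell replicate 1. Slc1a4 was also lost with a pseudocount of 0.1 and kept its call in 0 of 4 alternative settings. Slc38a8 was no longer called with a pseudocount of 0.1 or without PR-DUB CTR 4-cell replicate 2, nor Slc43a3 without KDM6B CTR 2-cell replicate 2. The KDM6B 4-cell libraries carry another sequencer label than the other libraries of this table, and its part in the stage difference was not tested. At the 2-cell stage the controls differed in 10 members, where 27% of all genes were called.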

How the results depend on the processing

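No member that was called changed direction under any alternative run. In PR-DUB OE 4-cell embryos the count of 2 called members became 1 with a pseudocount of 0.1, 1 with the replicate block and 1 when fitted on only the 4 libraries compared. With no filter it was again 2, but these were Slc36a4 (higher, adjusted p = 0.000159) and Slc6a13 (lower, adjusted p = 0.0472), both at about 1 FPKM or less. In KDM6B OE 4-cell embryos the count of 1 became 0 with each of these 3. The difference of PR-DUB effects between stages went from 0 to 1 called with no filter, and that of PR-DUB minus KDM6B effects at the 4-cell stage from 0 to 1 with no filter and to 1 with a pseudocount of 0.1. KDM6B against PR-DUB controls at the 4-cell stage went from 11 to 7 on only the 4 libraries. Causes were not tested.

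Leaving out 1 library at a time, counts ran from 0 to 0 (PR-DUB OE, 2-cell), 0 to 1 (PR-DUB OE, 4-cell), 0 to 0 (KDM6B OE, 2-cell), 0 to 1 (KDM6B OE, 4-cell), 13 to 14 (PR-DUB CTR stages), 14 to 17 (KDM6B CTR stages), 0 to 0 (Eed) and 12 to 18 (late 2-cell against MII). They ran from 0 to 2 for PR-DUB minus KDM6B effects at the 4-cell stage and from 0 to 0 for the other effect differences. For the added comparisons they ran from 14 to 16 (PR-DUB OE stages), 11 to 14 (KDM6B OE stages), 5 to 7 (stage difference of controls), 4 to 6 (controls, 2-cell) and 5 to 9 (controls, 4-cell). The lone library of a group is then assumed to vary like the other groups. Replicate numbers do not pair the libraries, as deviations of same-numbered libraries correlated at -0.0622 to 0.0366 and no label ties them. Of the member calls refitted with the replicate block, 53 kept their call and 2 lost it, Slc6a6 in PR-DUB OE and Slc6a14 in KDM6B OE at the 4-cell stage. Depth limits genes under 1 FPKM, which rest on few fragments.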
